A study of Mus musculus with 40 samples.

Results

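The spinal cord of mice given the PPARγ antagonist T0070907 with SUEHP was compared with that of mice given the CB1 antagonist SR141716A with SUEHP. The members were chosen by label: 4 spinal cord libraries of the group MPTP-SU+T and 4 of the group MPTP-SU+S, which make up 8 of the 40 libraries of the series. The series holds mRNA sequencing of midbrain and spinal cord in 5 groups of 4 libraries per tissue. Con received saline in place of toxin and preparation, MPTP-Veh received MPTP and vehicle, and MPTP-SU received MPTP and SUEHP. All mice were male C57BL/6N mice of 8 weeks. Every group but Con received MPTP, a toxin of dopaminergic neurons, at 20 mg/kg in 4 injections 2 h apart. Both antagonist groups also received SUEHP, a pharmacopuncture preparation of herbs and deer antler that was injected on 4 occasions, at the acupoint GB34 per the series' description, although the study's legends give GB35 for MPTP-SU+S. The labels give the CB1 antagonist as SR141714A, at 3 mg/kg, and T0070907 at 5 mg/kg, each injected intraperitoneally. The doses of the 2 agents differed, and no group received an antagonist without SUEHP. The labels do not say that the 4 libraries of a group came from separate animals, so the p-values below measure the spread between these libraries.

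CB1, the product of Cnr1, is a receptor coupled to inhibitory G proteins that sits on presynaptic terminals and reduces transmitter release when endocannabinoids bind it. In the dorsal horn it dampens the relay of nociceptive signals. PPARγ, the product of Pparg, is a nuclear receptor that binds DNA as a heterodimer with a retinoid X receptor, switches on genes of lipid uptake and storage, and restrains inflammatory genes. T0070907 blocks its ligand pocket.

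The spinal cord libraries held 14642808 to 16615378 counts. One library of the comparison stood apart. In MPTP-SU+T replicate 1, Gm26917, a long noncoding RNA gene, took 11.0% of all counts, against 0.693% to 0.843% in the other MPTP-SU+T libraries and 0.749% to 1.62% in MPTP-SU+S. Con replicates 1 and 2 held 3.34% and 8.04%. The tissue label was checked against marker genes. Of 29 listed Hox genes, which mark position along the cord, 26 passed the low-count filter, while Emx1 and Tbr1 of the forebrain and Slc6a3 of midbrain dopaminergic neurons had at most 8 counts in any spinal cord library. Other genes of those lists were expressed in the cord. Of 12 listed forebrain genes 6 passed the filter, as did 7 of 12 midbrain dopaminergic and 3 of 5 serotonergic genes.

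The 2 groups differed in many genes by small amounts. Of 16682 genes tested with edgeR, 20 (0.12%) were differentially expressed genes (DEGs), which had to pass 0.05 after Benjamini-Hochberg adjustment and also exceed a 1.5-fold difference. Of these, 9 (0.054%) were higher and 11 (0.0659%) lower in MPTP-SU+T than in MPTP-SU+S. At the adjusted p-value alone, 511 genes (3.06%) passed, 266 (1.59%) higher and 245 (1.47%) lower, with a median log2 fold change of 0.27 among the higher and -0.30 among the lower. Without adjustment 3628 genes (21.7%) had p below 0.05, 1851 (11.1%) higher and 1777 (10.7%) lower, and 204 of them (1.22%) also exceeded 1.5-fold, 97 (0.581%) upward and 107 (0.641%) downward. With library sizes alone as the scale, 20 genes passed, 7 higher and 13 lower, and the 3 DEGs left were all lower. The counts rested on single libraries. The 20 DEGs became 1 without MPTP-SU+T replicate 3, 3 without MPTP-SU+S replicate 3, 4 without MPTP-SU+S replicate 4 and 6 without MPTP-SU+S replicate 2. They became 9 without MPTP-SU+T replicate 1, 10 without MPTP-SU+T replicate 4, 33 without MPTP-SU+T replicate 2 and 51 without MPTP-SU+S replicate 1. The 511 genes became 4, 48, 29, 46, 132, 102, 699 and 1053 in the same order.

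The direction of the difference moved with base composition. GC content, the share of G and C in the longest annotated transcript, was available for 15574 of the tested genes. When these were cut into 10 equal bins, the median log2 fold change was -0.17 in the bin with the lowest GC content and 0.17 in the bin with the highest. Among the genes higher in MPTP-SU+T, 252 of 262 (96.2%) lay above the overall median GC content of 49.7%, and among the lower genes 8 of 242 (3.31%) did. Across these 15574 genes the Spearman correlation of log2 fold change with GC content was 0.57 and with transcript length -0.04. These are descriptions across genes of the same 8 libraries, and genes are not independent replicates. The slope of each library's log2 levels on GC content, relative to the mean of all 20 libraries, lay between 0.03 and 0.13 per 10% GC in MPTP-SU+T and between -0.13 and 0.0049 in MPTP-SU+S. The 4 Con libraries alone ran from -0.14 to 0.10, and only replicates 3 and 4 of MPTP-SU+T, at 0.13 and 0.12, lay outside that range. When the trend on GC content and length was removed library by library, no DEG was left by edgeR, 11 genes passed the adjusted p-value, 1941 genes had an unadjusted p-value under 0.05, and 6 of the 11 were among the 511. What caused the trend was not tested.

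**Figure D1:**
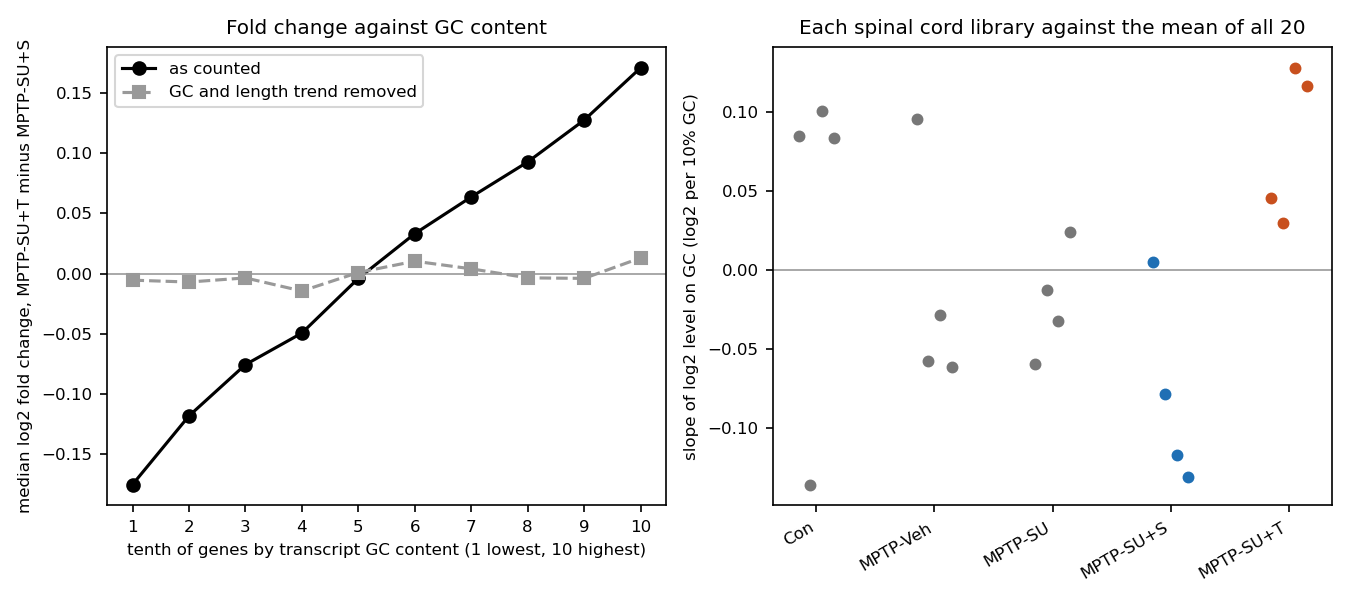
The left plot gives the median log2 fold change (MPTP-SU+T minus MPTP-SU+S) in each of 10 equal bins of genes by transcript GC content, as counted (circles) and with the GC and length trend removed (squares); it climbs from -0.17 to 0.17 as counted. The right plot gives each spinal cord library's slope of log2 level on GC content, relative to the mean of the 20 libraries, by group; the MPTP-SU+T points all lie above those of MPTP-SU+S, and the Con points span most of the range.

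The base composition can be read in the coding sequences of called genes. The first 120 coding bases are shown for Trpm4, which was higher in MPTP-SU+T, and for Glrb and ATP8, which were lower, with every G and C in capitals. The 3 were picked after their values were seen. They are read 5′ to 3′ from GENCODE transcripts on GRCm38, while the counts were made on GRCm39 according to the submitters' processing notes.
Trpm4: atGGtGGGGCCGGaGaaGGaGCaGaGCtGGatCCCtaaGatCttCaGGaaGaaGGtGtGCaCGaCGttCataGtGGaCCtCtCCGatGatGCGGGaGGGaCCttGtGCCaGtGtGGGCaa
Glrb: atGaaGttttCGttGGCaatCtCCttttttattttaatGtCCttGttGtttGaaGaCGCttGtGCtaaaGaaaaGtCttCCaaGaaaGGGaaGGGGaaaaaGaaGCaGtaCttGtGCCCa
ATP8: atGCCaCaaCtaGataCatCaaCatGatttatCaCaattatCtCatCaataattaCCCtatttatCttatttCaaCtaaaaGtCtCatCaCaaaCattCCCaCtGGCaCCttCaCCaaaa
The Trpm4 stretch runs over 3 exons on the minus strand within chr7:45327871-45333710 and holds 69 G or C bases, and its whole coding sequence is 58.9% GC. The Glrb stretch lies in exon 2 on the minus strand of chr3:80911970-80912089 and holds 46, with 44.7% over the coding sequence. The ATP8 stretch lies on the plus strand of the mitochondrial genome at chrM:7766-7885 and holds 39, with 31.9% over the coding sequence.

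Genes encoded by the mitochondrial genome were the group with the largest share of called members. They encode subunits of the respiratory chain and of ATP synthase. Of the 13 protein-coding ones, 11 were lower in MPTP-SU+T at the adjusted p-value and 12 had a negative log2 fold change, with a median of -0.49 against 0.01 over all genes tested. Together they took 11.0% to 13.6% of counts in MPTP-SU+T and 14.8% to 18.03% in MPTP-SU+S, so that the groups did not overlap. The share was 15.1% to 16.5% in MPTP-SU, 14.3% to 16.4% in MPTP-Veh and 12.4% to 14.2% in Con, so that MPTP-SU+T overlapped Con. The highest share, in MPTP-SU+S replicate 4, had a Wilson 95% interval of 18.01% to 18.05%, which covers counting error only.

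ATP8, an ATP synthase subunit, was at 2169, 2289, 1921 and 2398 CPM in the 4 MPTP-SU+T libraries and at 2945, 3555, 3992 and 3836 CPM in MPTP-SU+S. CPM are counts scaled to a common library size after TMM normalization. Every MPTP-SU+T library lay below every MPTP-SU+S library, and the log2 fold change was -0.71 ± 0.11 (SE, edgeR adjusted p = 0.0044). ND4, a subunit of complex I, was at 12321, 14047, 12209 and 13770 CPM in MPTP-SU+T and at 15212, 20752, 21425 and 21860 CPM in MPTP-SU+S. MPTP-SU+S replicate 1 stood nearest to the other group, and the log2 fold change was -0.60 ± 0.10 (edgeR adjusted p = 0.0056). These 2 were the only DEGs of the list, and ATP8 passed the adjusted p-value in all 8 leave-outs of a library and ND4 in 7. ND2 (-0.55), ND1 (-0.55), ND3 (-0.55), ND5 (-0.50), ATP6 (-0.49), COX2 (-0.44), ND4L (-0.43), CYTB (-0.42) and COX1 (-0.41) also passed the adjusted p-value on the log2 scale. COX3 (-0.30, edgeR adjusted p = 0.134) did not.

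ND6, the only protein gene on the light strand of the mitochondrial genome, had a log2 fold change of 0.08 ± 0.12 (edgeR adjusted p = 0.739). Its CPM were 97.3, 96.3, 82.6 and 74.7 in MPTP-SU+T and 94.7, 77.0, 68.4 and 90.7 in MPTP-SU+S, and the groups overlapped. The mitochondrially encoded genes are among the poorest in GC, with a median of 37.1%. With the GC and length trend removed their median was -0.21, none of the 13 passed the adjusted p-value with edgeR, 12 were negative, 9 of these had an unadjusted p-value under 0.05, and ND6 was at 0.41 (edgeR adjusted p = 0.143). ATP8 was then at -0.22 (edgeR adjusted p = 0.512) and ND4 at -0.33 (edgeR adjusted p = 0.0578). Without MPTP-SU+T replicate 3 the called members fell to 2, without MPTP-SU+S replicate 4 to 6 and without MPTP-SU+S replicate 3 to 7.

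**Figure D2:**
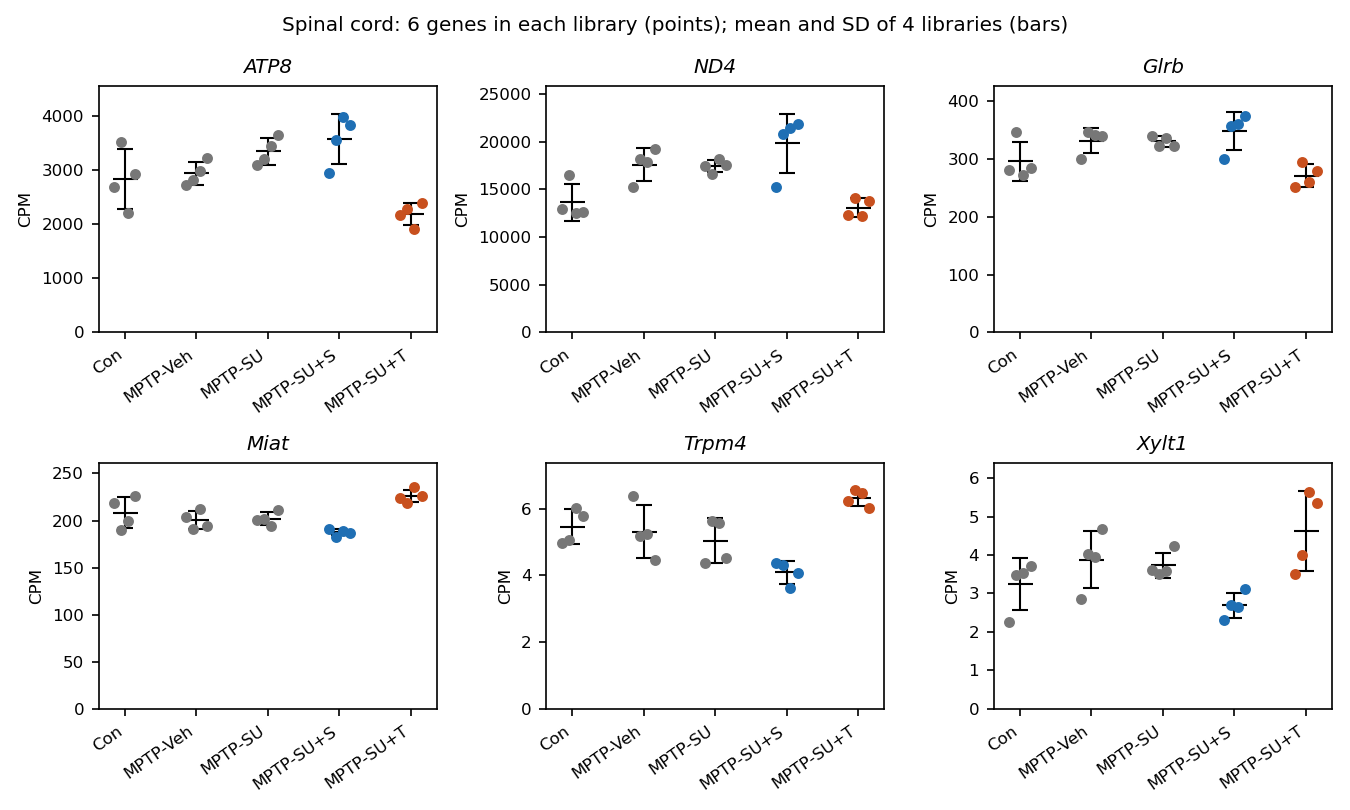
CPM of 6 genes in each of the 20 spinal cord libraries (points), with the mean and SD of the 4 libraries of each group (bars); MPTP-SU+S is blue and MPTP-SU+T orange. The 2 antagonist groups do not overlap in any of the 6, and MPTP-SU lies between them by its mean in all 6.

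Receptors of inhibitory transmission were lower in part. Glycine and GABA open chloride channels on spinal neurons and carry most inhibition in the cord. Of 28 tested genes of this list, 5 passed the adjusted p-value and all 5 were lower in MPTP-SU+T, against 1.47% lower over all genes, while DESeq2 called 10 lower and 1 higher and edgeR with library size alone called 0. In the list 22 members had a negative log2 fold change, with a median of -0.14. Glrb, the β subunit that anchors glycine receptors to the synapse through gephyrin, was at 252, 296, 260 and 279 CPM in MPTP-SU+T and at 300, 358, 360 and 375 CPM in MPTP-SU+S. The groups did not overlap, although MPTP-SU+T replicate 2 and MPTP-SU+S replicate 1 nearly met, and the log2 fold change was -0.36 ± 0.07 (edgeR adjusted p = 0.019). Glra3, a glycine receptor α subunit of the dorsal horn, ran from 16.4 to 19.02 CPM in MPTP-SU+T and from 21.0 to 25.3 CPM in MPTP-SU+S (log2 fold change -0.40 ± 0.09, edgeR adjusted p = 0.0257).

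Gabrg1, a GABA-A receptor subunit, also passed (-0.38, edgeR adjusted p = 0.0365), with MPTP-SU+T replicate 2 at 42.9 CPM above MPTP-SU+S replicate 1 at 37.3 CPM. Genes that make or package the transmitters were not called. Gad2, a GABA-synthesizing enzyme, was at -0.19 (edgeR adjusted p = 0.0891), Gad1 at -0.07 (edgeR adjusted p = 0.421), the vesicular transporter Slc32a1 at 0.12 (edgeR adjusted p = 0.509) and the glycine transporter Slc6a5 at -0.0012 (edgeR adjusted p = 0.993). Glra1, the main adult glycine receptor α subunit, was at 0.24 (edgeR adjusted p = 0.289). The median GC content of the list was 44.1%, and with the trend removed its median was -0.08 and no member passed. No member passed without MPTP-SU+S replicate 2, 3 or 4 or without MPTP-SU+T replicate 3, 1 passed without MPTP-SU+T replicate 1 or 4, and 9 without MPTP-SU+S replicate 1.

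The targets of the 2 antagonists did not pass the test. Cnr1 was at 39.8, 43.6, 42.1 and 42.0 CPM in MPTP-SU+T and at 40.6, 49.8, 51.3 and 45.8 CPM in MPTP-SU+S. MPTP-SU+S replicate 1 lay inside the range of the other group, and the log2 fold change was -0.16 ± 0.07 (edgeR adjusted p = 0.211). Pparg was scarce, at 1.15, 1.74, 1.39 and 1.12 CPM in MPTP-SU+T and at 1.03, 1.16, 1.096 and 1.21 CPM in MPTP-SU+S (log2 fold change 0.27 ± 0.24, edgeR adjusted p = 0.548). Cnr2, the CB2 receptor gene, had at most 5 counts in any spinal cord library and was not tested.

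Among the enzymes of endocannabinoid turnover, Faah, which degrades anandamide, ran from 27.8 to 30.6 CPM in MPTP-SU+T and from 23.0 to 28.9 CPM in MPTP-SU+S (log2 fold change 0.19 ± 0.06, edgeR adjusted p = 0.0980). Napepld, which makes anandamide precursors, was at -0.23 ± 0.09 (edgeR adjusted p = 0.143), Mgll, which degrades 2-arachidonoylglycerol, at 0.12 and Dagla, which makes it, at 0.07. None of the 21 tested genes of the endocannabinoid list passed with edgeR or with DESeq2. Faah, Cnr1 and Napepld, 3 of the 21, had an unadjusted edgeR p-value under 0.05, where 21.7% of all genes tested did. Of 33 genes of CB1 signalling, 2 passed: Adcy9, an adenylyl cyclase (0.21, edgeR adjusted p = 0.0409), and Grk2, a kinase that desensitizes receptors (0.18, edgeR adjusted p = 0.0488). Over all genes 1.59% were called higher. DESeq2 called 4 higher and 2 lower genes of the list, and edgeR with library size alone called 0. Adcy9 passed in 1 of the 8 leave-outs and Grk2 in 2, and with the GC and length trend removed they were at 0.06 and 0.04.

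On the PPAR side, Ppara (0.16), Ppard (0.09) and the heterodimer partner Rxra (0.13, edgeR adjusted p = 0.237) were not called, nor was any of the 17 listed receptors and partners by edgeR. Of the 17, 2 had an unadjusted edgeR p-value under 0.05, where 21.7% of all genes tested did, and DESeq2 called 1. Of 38 tested PPAR target genes, 19 were positive and 19 negative, with a median of 0.0041, and 1 passed, where 3.06% of all genes did. DESeq2 called 1 higher and 2 lower. The gene called by edgeR was Slc27a1, a fatty acid transporter, at 66.8, 67.0, 78.3 and 70.7 CPM in MPTP-SU+T and at 56.6, 60.1, 56.7 and 53.5 CPM in MPTP-SU+S. The groups did not overlap, and the log2 fold change was 0.32 ± 0.08 (edgeR adjusted p = 0.0295), or 0.18 with the GC and length trend removed (edgeR adjusted p = 0.184). It passed in 3 of the 8 leave-outs and not with library size alone (edgeR adjusted p = 0.114). Targets that respond in fat tissue, such as Plin1, Adipoq, Cidec and Aqp7, had at most 7 counts in any library.

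**Figure D3:**
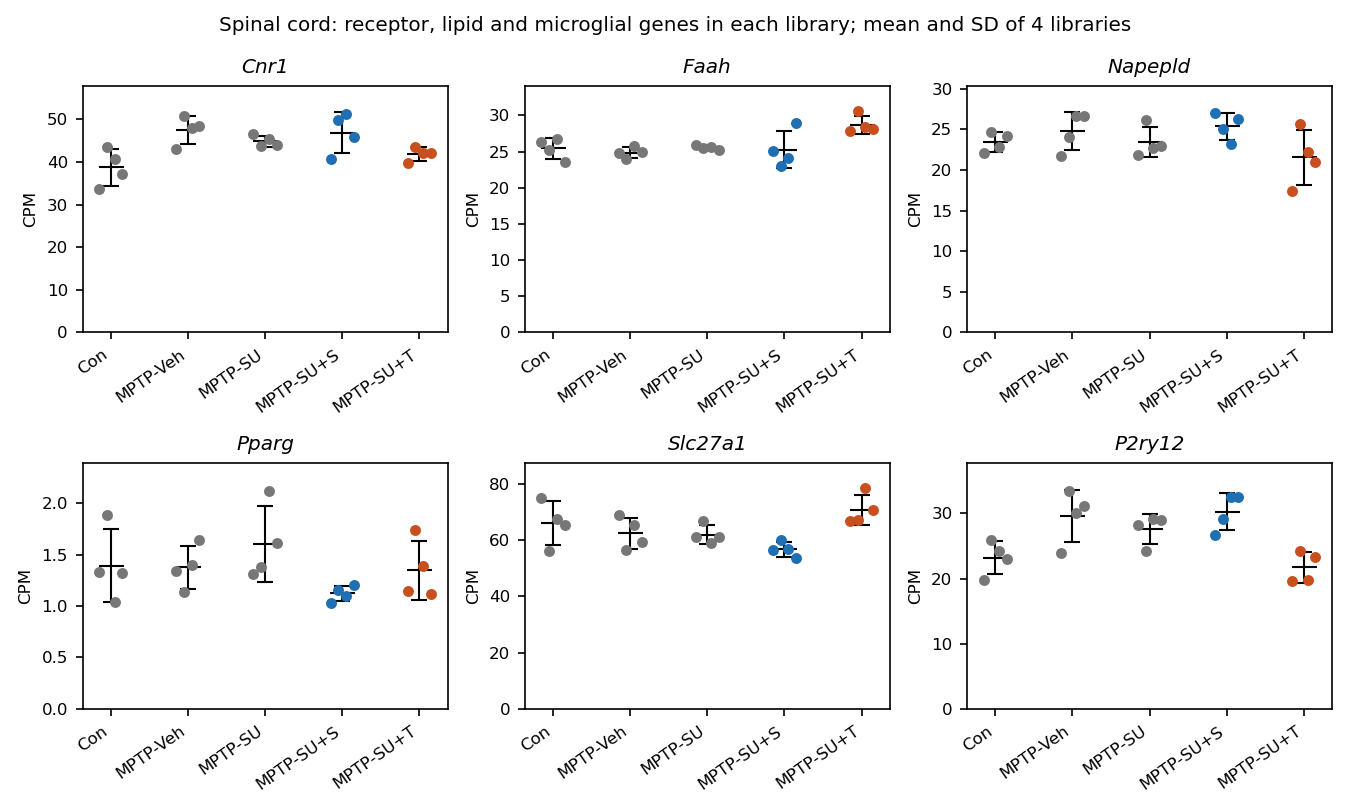
CPM of 6 genes of receptors, lipid handling and microglia in each of the 20 spinal cord libraries (points), with the mean and SD of the 4 libraries of each group (bars). Slc27a1 and P2ry12 separate the antagonist groups, while Cnr1, Faah, Napepld and Pparg overlap.

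Promoters were searched for the sequence that PPAR and retinoid X receptors bind together. The window was 250 bases before to 50 after each gene's start, from RefSeq on GRCm38.p6, and both strands were read. The direct repeat, AGGTCA followed by 1 free base and AGGTCA again, was in 5 of the 12613 tested genes with a promoter sequence (0.0396%) and in none of the 212 higher or 178 lower genes with one. At so low a share none was to be expected among so few promoters, so its absence there says nothing about the called genes. The single repeat unit AGGTCA was in 15.02% of all these promoters, in 12.7% of those of the higher and in 13.5% of those of the lower genes. The exact letters in this window say nothing about binding elsewhere.

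Genes of glia and vessels were called singly, in both directions. P2ry12, a purine receptor of resting microglia, was at 19.7, 24.2, 19.8 and 23.3 CPM in MPTP-SU+T and at 26.8, 29.1, 32.6 and 32.5 CPM in MPTP-SU+S. The groups did not overlap, and the log2 fold change was -0.47 ± 0.10 (edgeR adjusted p = 0.0212). It was the only one of 23 microglial genes to pass, where 3.06% of all genes tested did. Itgam (-0.04), Aif1 (0.20) and Trem2 (0.66, edgeR adjusted p = 0.0751) did not, and the summed level of the list ran from 489 to 518 CPM in MPTP-SU+T and from 496 to 520 CPM in MPTP-SU+S. In bulk tissue, fewer cells of a type and less RNA per cell cannot be told apart.

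In astrocytes, Aqp4, the water channel of astrocyte endfeet, ran from 582 to 693 CPM in MPTP-SU+T and from 779 to 886 CPM in MPTP-SU+S (log2 fold change -0.38 ± 0.10, edgeR adjusted p = 0.0385). Agt, angiotensinogen, went the other way (0.25 ± 0.07, edgeR adjusted p = 0.0439), and Gfap was at 0.21 (edgeR adjusted p = 0.115). Ugt8a, the enzyme that makes the galactolipids of myelin, was lower (-0.33 ± 0.08, edgeR adjusted p = 0.0271), at 284 to 332 CPM against 339 to 398 CPM. With edgeR over the 20 libraries it was the 1 called gene of 20 oligodendrocyte and of 32 glycosphingolipid genes, where 3.06% of all genes tested passed. DESeq2 called 1 higher and 1 lower oligodendrocyte gene and 2 lower glycosphingolipid genes. Rgs5, a gene of pericytes, was at 148 to 160 CPM against 172 to 184 CPM (-0.22 ± 0.04, edgeR adjusted p = 0.0183). With the GC and length trend removed the log2 fold changes were -0.28 for P2ry12, -0.25 for Aqp4, 0.13 for Agt, -0.14 for Ugt8a and -0.08 for Rgs5, and none of the 5 passed. These calls were also lost in part of the leave-outs of a library: P2ry12 and Ugt8a passed in 3 of the 8 leave-outs, Aqp4 in 2, Agt in 1 and Rgs5 in 5. The log2 fold changes kept their direction throughout. Over the leave-outs they ran from -0.53 to -0.43 for P2ry12, -0.40 to -0.30 for Ugt8a and -0.25 to -0.21 for Rgs5.

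Neuronal and lipid genes of the other lists were few. Slc5a7, the choline transporter of motor neurons and other cholinergic cells, was lower (-0.42 ± 0.11, edgeR adjusted p = 0.0435), with MPTP-SU+S replicate 1 at 80.0 CPM inside the MPTP-SU+T range of 65.9 to 86.0 CPM. Hoxc10, a homeobox gene of the lumbar cord, was at 74.3 to 80.9 CPM in MPTP-SU+T and 84.1 to 92.6 CPM in MPTP-SU+S (-0.20 ± 0.05, edgeR adjusted p = 0.0271). It passed with the GC and length trend removed too (-0.22, edgeR adjusted p = 0.0413), but in only 3 of the 8 leave-outs and not with library size alone (edgeR adjusted p = 0.199). Of 24 genes of cholesterol synthesis, 2 were called, Idi1 (-0.33) and Nsdhl (-0.28), both lower, where 1.47% of all genes were called lower. DESeq2 called 4 lower and 1 higher of this list, and edgeR with library size alone called 0. The pore subunit Cacna1g (0.22) and the auxiliary subunit Cacnb3 (0.30) were the called members of 23 voltage-gated calcium channel genes. Both were higher, where 1.59% of all genes were called higher. DESeq2 called 3 higher genes of this list and edgeR with library size alone called 0. Mapk11, a p38 kinase, was the 1 called gene of 39 in the cytokine and inflammation list (0.28, edgeR adjusted p = 0.0488), where 3.06% of all genes tested passed. In this list Il1b, Il6, Tnf, Ccl3, Ccl4 and Ccl5 had at most 5 counts in any library. Mapk14, the other p38 kinase followed here, was at 0.07. Mapk11 passed in 1 of the 8 leave-outs and failed with limma-voom (adjusted p = 0.0589) and in the 8 libraries alone (edgeR adjusted p = 0.0661), where 1 lower gene of the list was called instead. With the GC and length trend removed the log2 fold changes were -0.27 for Slc5a7, -0.21 for Idi1, -0.22 for Nsdhl, 0.03 for Cacna1g, 0.13 for Cacnb3 and 0.16 for Mapk11, and none of the 6 passed. Idi1 passed in 3 of the 8 leave-outs, Slc5a7, Nsdhl and Cacna1g in 2 each and Cacnb3 in 1.

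Genes of neuronal activity and pain were not called. Fos was at 8.95, 10.8, 8.06 and 13.9 CPM in MPTP-SU+T and at 10.7, 11.9, 6.77 and 11.7 CPM in MPTP-SU+S (log2 fold change 0.02 ± 0.21, edgeR adjusted p = 0.963). None of 25 immediate early genes passed with edgeR or DESeq2, and 1 had an unadjusted edgeR p-value under 0.05, where 21.7% of all genes did. In this list 20 were positive, where 51.3% of all genes tested were, with a median of 0.12, which was 0.03 without MPTP-SU+T replicate 4 and 0.06 without MPTP-SU+S replicate 4. The median GC content of the list was 54.4%, and with the GC and length trend removed its median log2 fold change was 0.065. Bdnf was at -0.14 ± 0.12 (edgeR adjusted p = 0.539), and none of 17 neurotrophin genes and 35 neuropeptide and opioid genes passed with edgeR over the 20 libraries. Up to 1 of each list passed in single leave-outs and 2 neuropeptide genes in the 8 libraries alone, against 1 of each list with DESeq2. An unadjusted edgeR p-value under 0.05 was held by 1 neurotrophin gene and 8 neuropeptide and opioid genes, where 21.7% of all genes had one. Th, tyrosine hydroxylase, was at 2.29 to 3.76 CPM over the 8 libraries (0.24, edgeR adjusted p = 0.457).

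Markers of skeletal muscle and red blood cells leaned one way without passing. Of 29 skeletal muscle genes 27 were positive, with a median of 0.40, and of 9 red blood cell genes all were positive, with a median of 0.26, where 51.3% of all genes tested were positive. The muscle median was 0.20 without MPTP-SU+T replicate 2, 0.25 without MPTP-SU+T replicate 3 or MPTP-SU+S replicate 2, 0.66 without MPTP-SU+T replicate 4 and 0.86 without MPTP-SU+S replicate 4. The red cell median was 0.11 without MPTP-SU+S replicate 1, 0.16 without MPTP-SU+T replicate 1 and 0.17 without MPTP-SU+T replicate 3. No member of either list passed the adjusted p-value with edgeR or DESeq2. An unadjusted edgeR p-value under 0.05 was held by 4 muscle genes and 1 red cell gene, where 21.7% of all genes tested had one. The summed muscle level ran from 95.5 to 291 CPM in MPTP-SU+T and from 110 to 235 CPM in MPTP-SU+S, and the summed red cell level from 497 to 783 CPM and from 407 to 566 CPM. Myh4, a fast muscle myosin, was at 12.0, 68.0, 34.3 and 0.124 CPM in MPTP-SU+T and at 27.8, 6.1, 2.7 and 29.2 CPM in MPTP-SU+S, and the groups overlapped widely. The part of muscle and red cells in the results was not tested. Other tissues around the cord were mixed. Of 14 ependymal and choroid plexus genes 11 were negative, with a median of -0.11, and of 14 root and ganglion genes 8 were negative. Positive were 14 of 24 meningeal fibroblast genes, 4 of 7 fat genes and 10 of 20 vessel genes. By edgeR over the 20 libraries no member passed in the lists of fat tissue, roots and ganglia, meningeal fibroblasts, ependyma and choroid plexus, heat shock, circadian clock, glucocorticoid response, or midbrain, forebrain and serotonergic neurons. In the 8 libraries alone edgeR called 1 member each in the fibroblast, clock and heat shock lists, and single leave-outs called up to 1 in the fat and clock lists. DESeq2 called 1 member each in the fat, heat shock, clock and glucocorticoid lists. Per list, 0 to 6 members had an unadjusted edgeR p-value under 0.05, where 21.7% of all genes tested did.

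**Figure D4:**
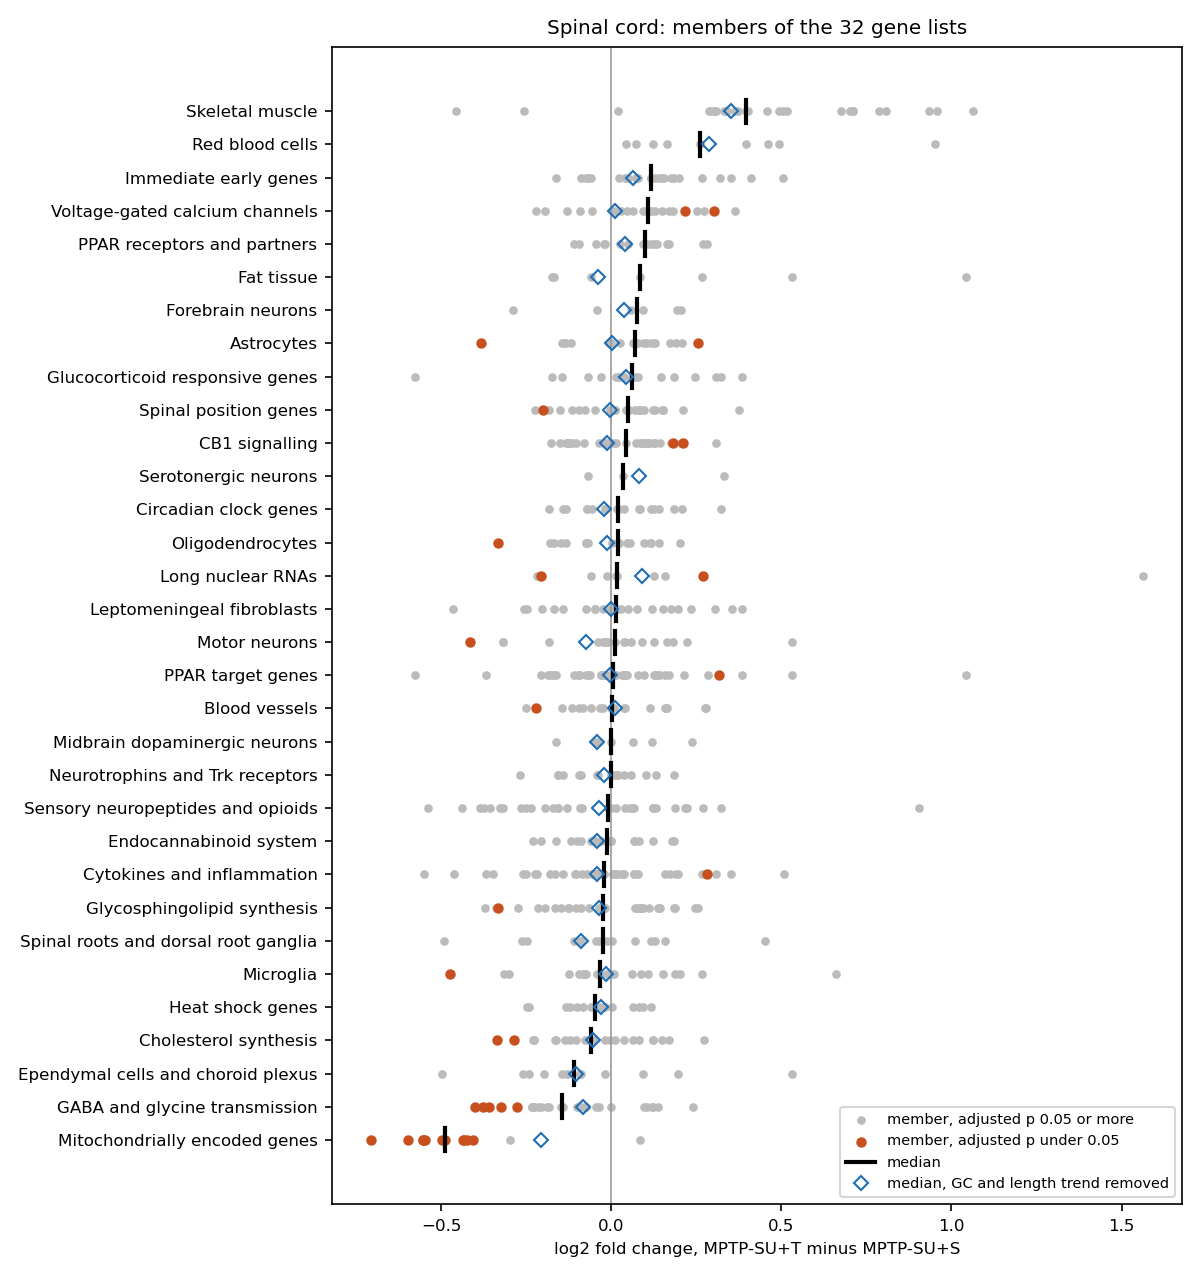
Log2 fold change (MPTP-SU+T minus MPTP-SU+S) of each tested member of the 32 lists, orange where the adjusted p-value was below 0.05, with the list's median as counted (bar) and with the GC and length trend removed (diamond). The mitochondrially encoded genes stand lowest, with 11 of 13 members called, and the skeletal muscle list stands highest with none.

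Among the genes higher in MPTP-SU+T, Miat, a long noncoding RNA of neurons, was at 224, 219, 235 and 226 CPM in MPTP-SU+T and at 191, 183, 189 and 187 CPM in MPTP-SU+S. The groups stood apart, with a log2 fold change of 0.27 ± 0.05 (edgeR adjusted p = 0.0109), which is below the fold threshold of a DEG. It passed in 7 of the 8 leave-outs, and with the GC and length trend removed it was at 0.13 (edgeR adjusted p = 0.266).

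The 9 DEGs that were higher were mostly genes of low level. Trpm4, a calcium-activated cation channel, was at 6.23, 6.55, 6.48 and 6.03 CPM in MPTP-SU+T and at 4.37, 4.31, 3.61 and 4.07 CPM in MPTP-SU+S. No library came near the other group, and the log2 fold change was 0.63 ± 0.13 (edgeR adjusted p = 0.0191). Xylt1, which starts the sugar chains of proteoglycans, was at 3.51, 4.00, 5.63 and 5.35 CPM in MPTP-SU+T and at 2.31, 2.70, 2.64 and 3.12 CPM in MPTP-SU+S (0.78 ± 0.185, edgeR adjusted p = 0.0278). Replicates 3 and 4 of MPTP-SU+T were the high ones. Lingo4, a membrane protein of the LINGO family, was at 7.23, 3.89, 5.94 and 5.41 CPM against 2.61, 3.54, 3.74 and 3.62 CPM (0.73 ± 0.18, edgeR adjusted p = 0.0324).

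The others were Hyi (0.64), Trp53i13 (0.64), Adprs (0.62), Rgl3 (0.60), BC024139 (1.18) and Gm20605 (1.25). Adprs encodes a hydrolase that removes ADP-ribose from serine, and Rgl3 an exchange factor for Ral GTPases. BC024139 was at most 1.88 CPM in any of the 8 libraries. Gm20605 is annotated as a read-through of Lrch4 and Sap25, so its reads can be shared with Lrch4. Each of the 9 separated the groups, as 13.1% of all genes tested did, 7.24% upward and 5.84% downward. The exact permutation test of 4 against 4 libraries cannot go below p = 0.0286, the value each of the 9 had. With the GC and length trend removed their log2 fold changes ran from 0.45 in Rgl3 to 1.09 in Gm20605, with adjusted p-values (edgeR) of 0.0900 for Xylt1, 0.0917 for Trpm4 and more for the rest. Of the 8 leave-outs, Trpm4, Hyi and Rgl3 passed in 4, Xylt1 and BC024139 in 3, Lingo4 and Gm20605 in 2, Adprs in 1 and Trp53i13 in 0. Trp53i13 also failed with RLE size factors (edgeR adjusted p = 0.0520) and in the 8 libraries alone (edgeR adjusted p = 0.0716).

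Of the 11 lower DEGs, 9 lay outside the mitochondrial genome. Nat1, an arylamine N-acetyltransferase, was at 1.43, 1.62, 1.27 and 1.37 CPM in MPTP-SU+T and at 3.40, 2.51, 2.64 and 3.31 CPM in MPTP-SU+S. The groups were far apart, with a log2 fold change of -1.05 ± 0.205 (edgeR adjusted p = 0.0139). Gulp1, an adaptor for the uptake of dying cells, was at 9.95, 11.9, 11.2 and 7.96 CPM against 17.5, 18.1, 14.1 and 15.2 CPM (-0.66 ± 0.15, edgeR adjusted p = 0.0278). Lrp8os3, a noncoding transcript, was at 0.91 to 1.36 CPM against 1.84 to 2.83 CPM (-1.04 ± 0.215, edgeR adjusted p = 0.0191), and 9430065F17Rik, annotated as antisense, at 0.35 to 0.61 CPM against 0.77 to 1.27 CPM (-1.15 ± 0.31, edgeR adjusted p = 0.0481). Nat1 passed in 6 of the 8 leave-outs, Lrp8os3 in 5, Gulp1 in 2 and 9430065F17Rik in 1. With the GC and length trend removed Nat1 was at -0.86 (edgeR adjusted p = 0.0738) and Gulp1 at -0.44 (edgeR adjusted p = 0.252). None of the 9 passed then.

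The remaining lower DEGs, Zfp934, Zfp455, Gm3055, Gm2026 and Fam220a, are uncertain: zinc finger and predicted genes can have similar copies and Fam220a has 2 overlapping entries in the annotation, so estimated counts can be split, and this was not tested. Zfp934 was at 4.51, 4.52, 4.54 and 3.98 CPM in MPTP-SU+T and at 6.80, 7.79, 6.90 and 6.80 CPM in MPTP-SU+S (-0.69 ± 0.13, edgeR adjusted p = 0.0107). Zfp455 was at 0.72 to 1.21 CPM against 1.33 to 2.77 CPM (-1.118 ± 0.26, edgeR adjusted p = 0.0271) and Gm3055 at 7.54 to 10.3 CPM against 11.2 to 15.5 CPM (-0.67 ± 0.17, edgeR adjusted p = 0.0402). These 3 separated the groups. Gm2026 was at 2.22, 2.78, 2.00 and 9.83 CPM against 6.86, 21.6, 15.6 and 25.8 CPM, and the groups overlapped (-2.04 ± 0.44, edgeR adjusted p = 0.0228, exact permutation p = 0.0571). Fam220a was at 0.29, 0.00, 0.24 and 0.25 CPM in MPTP-SU+T and at 17.5, 17.8, 16.96 and 0.00 CPM in MPTP-SU+S. It was either under 1 CPM or above 12 CPM in every spinal cord library, also within Con, where replicate 2 was at 19.7 CPM and the other 3 at 0.40 or less. Its adjusted p-value (edgeR) was 0.0470 and its exact permutation p = 0.143, and its fitted log2 fold change of -6.06 ± 1.64 depends on how counts near 0 are treated. Zfp934 passed in 7 of the 8 leave-outs, Gm2026 in 3, Zfp455 in 2, and Gm3055 and Fam220a in 1 each.

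**Figure D5:**
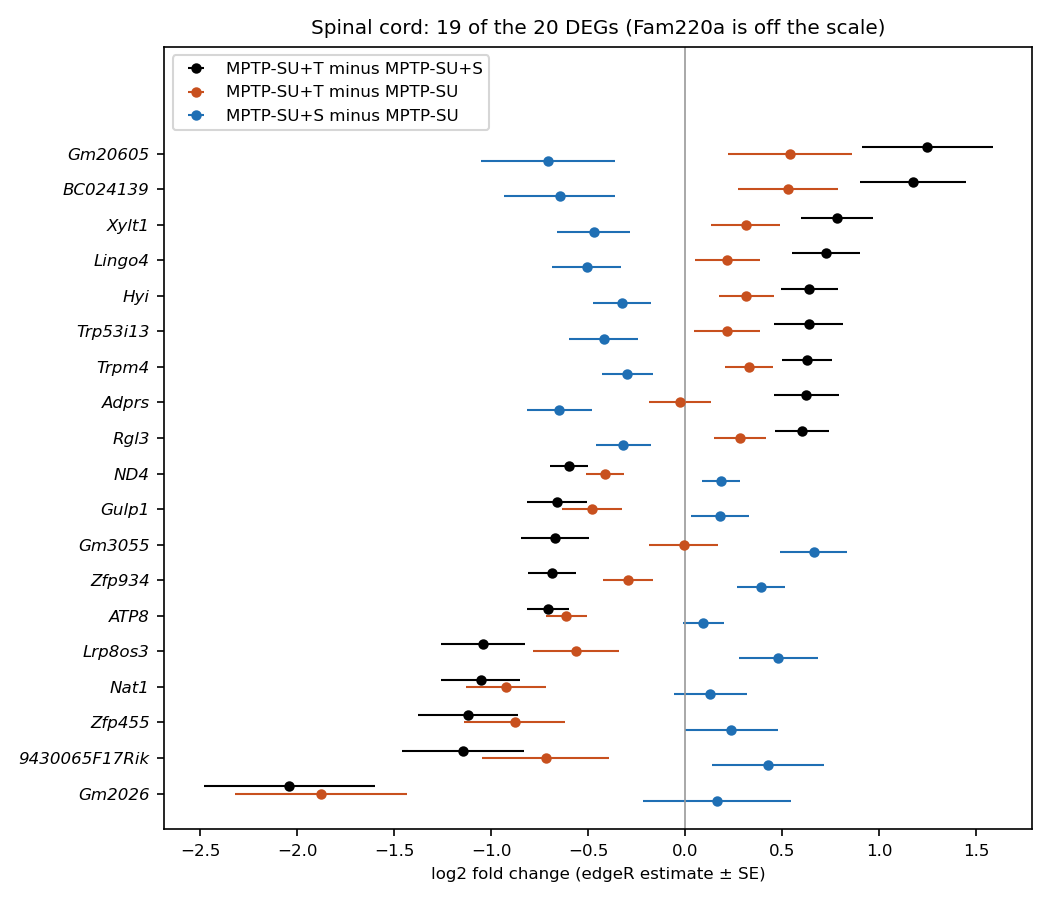
Log2 fold change (edgeR estimate ± SE) of 19 of the 20 DEGs in MPTP-SU+T minus MPTP-SU+S (black), MPTP-SU+T minus MPTP-SU (orange) and MPTP-SU+S minus MPTP-SU (blue); Fam220a is left out for its scale. For Adprs and Gm3055 the orange point lies near 0, and for ATP8 and Nat1 the blue point does.

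Set beside MPTP-SU, which received SUEHP without an antagonist, each antagonist group had fewer called genes than the direct comparison. The 3 comparisons share libraries, so their values are given side by side and not tested against one another. With edgeR, MPTP-SU+T differed from MPTP-SU in 6 genes at the adjusted p-value (0.036%), 4 of them DEGs (0.024%), and in 2015 (12.1%) without adjustment, with 85 by DESeq2 and 4 by limma-voom, and MPTP-SU+S in none, with 916 (5.49%) at an unadjusted p-value under 0.05, 1 by DESeq2 and 0 by limma-voom. The 6 genes were ND2, ATP8, Calca, Kif21b, Scara3 and Dbp, named after their values were seen, and the DEGs were ATP8, Calca, Scara3 and Dbp. ATP8 was at -0.61 in MPTP-SU+T and 0.09 in MPTP-SU+S relative to MPTP-SU, and ND2 at -0.47 and 0.08. Kif21b, a kinesin, was at 0.25 and -0.04.

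The other 3 did not pass between the antagonist groups. Dbp, a transcription factor under clock control, was at 42.0, 38.9, 43.3 and 46.3 CPM in MPTP-SU+T, at 41.9, 37.4, 41.0 and 36.7 CPM in MPTP-SU+S and at 27.6, 27.9, 26.7 and 30.4 CPM in MPTP-SU. Both antagonist groups lay above MPTP-SU in every library. Scara3, a scavenger receptor, was at 8.30 to 12.0, 7.22 to 10.3 and 5.51 to 6.58 CPM in the same order, and Calca, the gene of calcitonin gene-related peptide, at 10.2 to 12.0, 13.4 to 14.4 and 14.7 to 23.8 CPM.

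In the midbrain of the same groups no gene passed. Of 16629 genes tested with edgeR, 0 passed the adjusted p-value and 130 (0.782%) had an unadjusted p-value under 0.05, while limma-voom called 0 and DESeq2 called 1, Gm26444, which was named after its values were seen. The DESeq2 log2 fold change of Gm26444 was -37.9, too large to be read as a real difference, so this call is uncertain. Without midbrain MPTP-Veh replicate 4, which stood apart in that tissue, 0 passed and 309 (1.84%) had an unadjusted p-value under 0.05. The midbrain libraries varied more, with a common dispersion of 0.0512 against 0.00710 in the spinal cord. ATP8 was at -0.10 ± 0.49 and ND4 at -0.07 ± 0.43 in the midbrain. A test of the difference between the tissues found 0 genes at the adjusted p-value with edgeR and 345 of 17426 (1.98%) at an unadjusted p-value under 0.05. That fit took the libraries of the 2 tissues as independent, and the labels do not say whether they share animals. A count of 0 there does not show that the tissues were alike.

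With the GC and length trend removed, the 11 genes that passed included Nnt, Mbnl2, Fmn2, Hoxc10 and Slc7a6, which were among the 511, and Btrc, Egln1, Tnik, Basp1 and Slc25a23, which were not. Nnt, the mitochondrial enzyme that makes NADPH from the proton gradient, was at 23.5, 30.2, 27.9 and 28.5 CPM in MPTP-SU+T and at 37.3, 35.5, 35.5 and 34.1 CPM in MPTP-SU+S. The groups did not overlap, and the log2 fold change was -0.37 both before and after the removal (edgeR adjusted p = 0.0139 and 0.0413). Mbnl2, a splicing regulator, was at 259 to 324 CPM against 327 to 389 CPM and at -0.34 after the removal. Slc7a6, an amino acid transporter, was at 19.3 to 23.8 CPM against 15.4 to 17.2 CPM and at 0.37. The fold change of each of the 11 was below 1.5.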

How the data were processed

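Per the labels and the Methods, mRNA from midbrain and spinal cord was sequenced, and the authors used fastp for trimming, STAR for alignment and Salmon for quantification; the submitters' processing notes also name GATK and the build GRCm39. The deposited tables hold 1 column of estimated counts per gene symbol (expected counts, already whole numbers) and library, not normalized by the authors. Pretreatment with the antagonists is stated in the Methods and co-treatment in the labels, and the 2 sources name different RNA kits.

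Counts were analysed in R 4.3.3 with edgeR 4.0.16. Of 40213 symbols, filterByExpr kept 16682 in the spinal cord. TMM scaling and 1 quasi-likelihood fit by group were applied to the 20 spinal cord libraries, and the midbrain was fitted likewise. P-values were adjusted over all genes tested by the Benjamini-Hochberg method. Alternatives were DESeq2 1.42.0, voom from limma 3.58.1, other scalings and filters, the 8 libraries alone, a replicate block, each library left out and, added after the data had been seen, removal of a trend on GC content and transcript length (natural splines per library; longest transcript per symbol in GENCODE vM21). Single genes were also given a two-sided exact permutation test. Scripts were tested on simulated data. Depth ranged from 14642808 to 16615378 counts per spinal cord library, and intervals on shares cover counting error only.

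The comparison and the 32 gene lists were chosen with earlier results of these data known. Named were up to 15 DEGs in each direction by p-value, filled to 10 from the smallest p-values, 17 fixed genes of the receptors, endocannabinoid enzymes, glia and activity, and of each list its DEGs or else its 2 smallest p-values. The text leaves out some of these and adds genes chosen after their values were seen: the mitochondrially encoded and inhibitory-transmission genes beyond that rule, those called against MPTP-SU, and those called with the trend removed. Some genes are not reported here.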

Additional observations from a re-analysis of the deposited data

Results flagged for a closer look

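Of 78 groups of 4 libraries examined, 10 held a library whose gap to the nearest of the others passed the 95% critical value of Dixon's test. For independent groups of normally distributed values, chance alone gives about 1 in 20. These groups share the same 8 libraries and many of the genes were picked from these data, so that rate is only a rough guide. In MPTP-SU+T replicate 1, Gm26917 took 11.0% of counts, against 0.693% to 0.843% in the other libraries of the group. ND4 was at 15212 CPM in MPTP-SU+S replicate 1, below the 20752 to 21860 CPM of the others. Zfp934 was at 7.79 CPM in MPTP-SU+S replicate 2, above 6.80 to 6.90 CPM, and at 3.98 CPM in MPTP-SU+T replicate 4, below 4.51 to 4.54 CPM. Gm2026 was at 9.83 CPM in MPTP-SU+T replicate 4, above 2.00 to 2.78 CPM. Fam220a was at 0 CPM in MPTP-SU+S replicate 4, against 16.96 to 17.8 CPM, and at 0 CPM in MPTP-SU+T replicate 2, against 0.242 to 0.286 CPM. Rgl3 was at 5.15 CPM in MPTP-SU+T replicate 1, below 5.60 to 5.68 CPM, and BC024139 at 1.88 CPM in MPTP-SU+T replicate 3, above 1.43 to 1.45 CPM. Itgam was at 16.8 CPM in MPTP-SU+T replicate 2, above 14.2 to 14.7 CPM.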

How the results depend on the processing

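The 20 DEGs became 5 with DESeq2, all lower, 22 with limma-voom, 19 with RLE size factors, 3 with library size alone, 39 without a low-count filter, 24 with at least 10 counts in every library, 20 in the 8 libraries alone and 0 with the GC and length trend removed, and they are 511 at the adjusted p-value alone. DESeq2 gave no adjusted p-value to any of the 9 higher DEGs, so none of them could be called there. The lower DEGs that DESeq2 did not call had no adjusted p-value either. All kept their direction with DESeq2, with Trpm4 at 0.62, Xylt1 at 0.78 and Nat1 at -1.06. Leaving out 1 library gave 1 to 51 DEGs and 4 to 1053 genes at the adjusted p-value. Those 511 genes became 1358 with DESeq2, 20 with library size alone, 799 in the 8 libraries alone and 11 with the trend removed. With the replicate block there were 34 DEGs and 962 genes at the adjusted p-value, including all 20 and all 511; same-numbered libraries did not deviate together (correlations from -0.12 to 0.02), so the numbers were not taken to pair them. The 204 genes past 1.5-fold at an unadjusted p-value became 603 without a filter, 87 with at least 10 counts and 128 with the trend removed. The 2181 genes whose groups did not overlap became 1288 with library size alone and 1070 with the trend removed. DESeq2 called 1 gene in the midbrain. Rian was at -0.21 and turned to 0.0013 with the trend removed, which was added after the data had been seen. Apart from the missing adjusted p-values with DESeq2 and fewer libraries or genes in some fits, the cause of these changes was not tested. Depth was not varied.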
